A study of Homo sapiens with 2 samples.

Results

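The genes described here encode 10 factors that transcribe mitochondrial DNA and translate its messages. They are the translation factors MTIF2, MTIF3, TUFM, TSFM, GFM1, GFM2 and MRRF, and the transcription members POLRMT, TFB1M and TFB2M. They were chosen by name from the 25277 rows of the gene table of each sample, and all 10 were found once in both tables. In PERK-KO cells, TFB2M mRNA was 1.99 times the WT level, GFM1 was 1.31 times and POLRMT was 1.16 times, whereas MTIF3 was at 0.743, GFM2 at 0.835 and TUFM at 0.886 of it. In these 6 genes the confidence limits of the FPKM, the fragment count scaled to transcript length and to the mapped fragments of the library, did not overlap between the samples. In MTIF2, TSFM, MRRF and TFB1M they overlapped. Of the 14594 genes that reached an FPKM of 1 in either sample, 18.7% were lower and 26.1% were higher with limits that did not overlap.

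Mitochondria keep a small genome whose messages encode core subunits of the respiratory chain, but every protein that reads this genome is encoded in the nucleus and imported. POLRMT is the single-subunit RNA polymerase, which starts transcription together with TFB2M and the DNA-packaging factor TFAM. The messages are translated by mitochondrial ribosomes through initiation (MTIF2, MTIF3), elongation (TUFM, TSFM, GFM1) and ribosome recycling (MRRF, GFM2).

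HEK293 cells, a human embryonic kidney line, were either WT or lacked the endoplasmic reticulum kinase PERK after CRISPR/Cas9 editing (PERK-KO). Both lines, at passage 15 to 20, were kept for 12 h in OXPHOS medium, which holds 10 mM galactose and 1 mM pyruvate and no glucose. PERK-KO lines were grown from single seeded cells, so the genotype and the history of a clone cannot be told apart. Each genotype was sequenced once, in poly(A)-selected RNA. No gene therefore has a replicate error, no difference was tested, and the deposited limits cover the counting and assignment error of 1 library, not the spread between cultures.

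The tables give no read totals. From genes whose limits returned whole fragment numbers, the depth of the PERK-KO library was 87.6% of the WT library. The mRNA of EIF2AK3, which encodes PERK, had an FPKM of 5.61 (limits 5.11 to 6.12) in WT and 3.89 (3.44 to 4.34) in PERK-KO cells, so the edited gene was still transcribed. Among markers of the line, VIM, KRT8 and KRT18 lay between 202 and 640 FPKM in both samples. PAX2, at 0.981 and 0.748, was low in both, and NEFM had 0.662 in WT and 5.21 in PERK-KO cells. Of the markers of other cells, ALB and UCP1 were listed at 0 in both samples, PTPRC did not exceed 0.180, PECAM1 had 1.35 and 1.36, and ADIPOQ had 1.68 and 1.42.

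The levels of the 10 mRNAs, compared per transcript length as FPKM, spanned 51.4-fold in WT and 27.7-fold in PERK-KO cells. TUFM, which encodes the elongation factor that brings aminoacyl-tRNA to the ribosome, was the highest in both samples and made up 38.6% of the summed FPKM of the 10 genes in WT and 36.8% in PERK-KO cells. TFB1M and TFB2M were the lowest in both. In WT cells the order was TUFM, TSFM, MTIF3, MRRF, POLRMT, MTIF2, GFM2, GFM1, TFB1M and TFB2M. Of its 9 pairs of neighbours, 6 had separate limits, and TSFM, MTIF3 and MRRF could not be told apart, nor could MTIF2 and GFM2. In PERK-KO cells the order was TUFM, TSFM, MRRF, POLRMT, MTIF3, MTIF2, GFM1, GFM2, TFB2M and TFB1M. There the limits of neighbours overlapped from TSFM through MRRF and POLRMT to MTIF3, and again between TFB2M and TFB1M. FPKM is a share of the library, so more RNA from other genes, less RNA of a gene per cell and fewer cells that express it cannot be told apart.

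**Figure D1:**
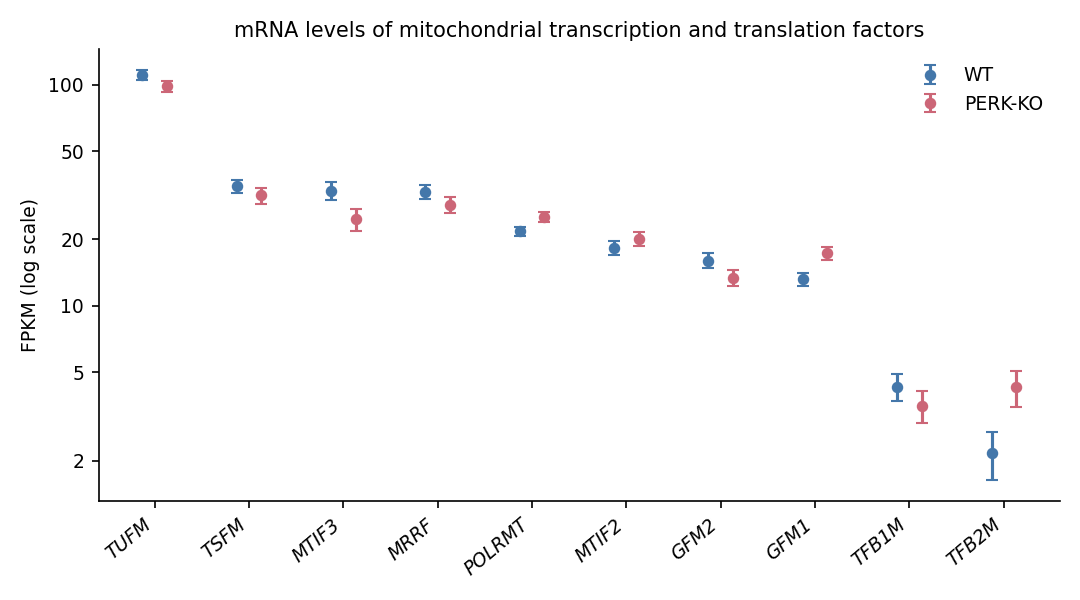
FPKM of the 10 genes on a log scale in WT cells (blue) and PERK-KO cells (red), 1 library each, ordered by the WT level; bars are the deposited confidence limits. TUFM stands highest at 111 and 98.3, and TFB2M is the lowest gene in WT cells at 2.16 and has 4.28 in PERK-KO cells, where its limits overlap those of TFB1M.

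Read as counts, none of the 10 genes was lower in PERK-KO cells by more than 1.5-fold and 1 was higher. Over the 14594 genes that reached an FPKM of 1 in either sample, called expressed here, 7.54% were lower and 10.1% were higher by that measure. Limits that did not overlap were found in 3 of the 10 genes that were lower and in 3 that were higher, and in 18.7% and 26.1% of all genes. The counts of the 10 genes lie near these shares, and no excess in either direction is read from them. The median log2 ratio of PERK-KO to WT was -0.16 over the 10 genes, compared with 0.04 over all 14594. It was -0.17 over the 7 translation genes and 0.22 over the 3 transcription genes, which is the value of POLRMT. The ratio also followed transcript length over all expressed genes. With that trend subtracted, the medians were -0.09 over the 10 genes, -0.10 over the 7 and 0.11 over the 3. The part of transcript length in the difference between the 2 groups was not tested.

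TFB2M, which spans bases 246703863 to 246729565 of chromosome 1 (GRCh37, minus strand), encodes the factor that lets POLRMT open the promoters of mitochondrial DNA. Its FPKM was 2.16 (limits 1.63 to 2.68) in WT and 4.28 (3.50 to 5.07) in PERK-KO cells. The widths of these limits corresponded to 67 fragments in WT and 120 in PERK-KO cells, so this is the member with the fewest reads behind it. Transcripts of 1000 to 2000 bases, as that of TFB2M with 1784, had a median log2 ratio of -0.16. That of TFB2M was 0.99, with a counting interval of 0.55 to 1.43, and 3.35% of all expressed genes had a higher ratio. Its lower bound, a ratio of 1.46, lies just under 1.5-fold.

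POLRMT, at 617223 to 633568 of chromosome 19, encodes the RNA polymerase itself. Its FPKM was 21.7 (20.6 to 22.8) in WT and 25.3 (24.0 to 26.5) in PERK-KO cells, for a log2 ratio of 0.22 (interval 0.12 to 0.32). The PERK-KO value was the higher one and the limits were separate, on about 1571 fragments in WT and 1602 in PERK-KO cells. With the trend of the ratio over transcript length subtracted, its log2 ratio was 0.11. TFB1M, at 155577264 to 155635617 of chromosome 6, encodes the relative of TFB2M that methylates the small ribosomal RNA of mitochondria. Its FPKM was 4.30 (3.70 to 4.91) in WT and 3.54 (2.96 to 4.13) in PERK-KO cells, with overlapping limits. The log2 ratio was -0.28 (interval -0.59 to 0.03), so a difference could not be detected at this depth and a fall to 0.664 of the WT level lies within the interval.

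MTIF3, at 28009776 to 28024739 of chromosome 13, encodes initiation factor 3, which keeps the ribosomal subunits apart before initiation. Its FPKM was 33.1 (30.1 to 36.1) in WT and 24.6 (21.9 to 27.3) in PERK-KO cells, for a log2 ratio of -0.43 (interval -0.63 to -0.22). This was the lowest ratio of the 10 genes, and 12.7% of all expressed genes had a lower ratio. MTIF3 also has the shortest transcript of the 10, at 995 bases, and the 1325 expressed genes with a transcript under 1000 bases had a median log2 ratio of -0.35. With the length trend subtracted, its log2 ratio was -0.15, and the part of transcript length in its lower value was not tested. In the annotation, 18.2% of its exonic bases are shared with GTF3A on the opposite strand, which had an FPKM of 78.1 in WT and 68.5 in PERK-KO cells. Retention of strand is not stated for these libraries, so reads in the shared part cannot be assigned to one gene with certainty.

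MTIF2, at 55463756 to 55496384 of chromosome 2, encodes initiation factor 2, the GTPase that places the initiator tRNA. Its FPKM was 18.3 (limits up to 19.6) in WT and 20.1 (limits from 18.6) in PERK-KO cells, so these overlapped. The log2 ratio was 0.14 with an interval of -0.01 to 0.29, and it includes 0, reaching from 0.992 to 1.22 times the WT level.

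TUFM, at 28853732 to 28857729 of chromosome 16, had an FPKM of 111 (105 to 117) in WT and 98.3 (93.0 to 104) in PERK-KO cells. Its log2 ratio was -0.17 (interval -0.28 to -0.07). The limits were separate by a margin of 1.53 FPKM, and the interval of the ratio did not include 0. TSFM, at 58176528 to 58196639 of chromosome 12, encodes the exchange factor that recharges TUFM with GTP. It had 34.8 (32.3 to 37.2) in WT and 31.6 (28.9 to 34.2) in PERK-KO cells, for a log2 ratio of -0.14 (interval -0.30 to 0.02). The limits of TSFM overlapped, and both genes of this pair had a lower value in PERK-KO cells. With the length trend subtracted, the log2 ratio was -0.12 for TUFM and -0.08 for TSFM.

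GFM1, at 158362317 to 158410360 of chromosome 3, encodes the elongation factor G that moves the ribosome along the message. It had 13.2 (12.3 to 14.1) in WT and 17.3 (16.2 to 18.4) in PERK-KO cells, for a log2 ratio of 0.39 (interval 0.25 to 0.52). It was the only translation gene of the 7 that was higher with separate limits, and 19.7% of all expressed genes had a higher ratio. GFM2, at 74017031 to 74063042 of chromosome 5, encodes the related factor that acts with MRRF to split the ribosome after termination. It had 16.0 (14.8 to 17.3) in WT and 13.4 (12.2 to 14.5) in PERK-KO cells, for a log2 ratio of -0.26 (interval -0.43 to -0.09). The limits were separated by 0.248 FPKM. MRRF, the recycling factor, at 125026882 to 125085742 of chromosome 9, had 32.8 (30.5 to 35.1) and 28.7 (26.4 to 31.0), a log2 ratio of -0.19. Both recycling genes thus had lower values in PERK-KO cells. The limits of MRRF overlapped, although the interval of its ratio, -0.34 to -0.04, did not include 0. Its transcript has 1841 bases, and transcripts of 1000 to 2000 bases had a median log2 ratio of -0.16. With the length trend subtracted, the log2 ratio was -0.10 for MRRF and -0.33 for GFM2.

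**Figure D2:**
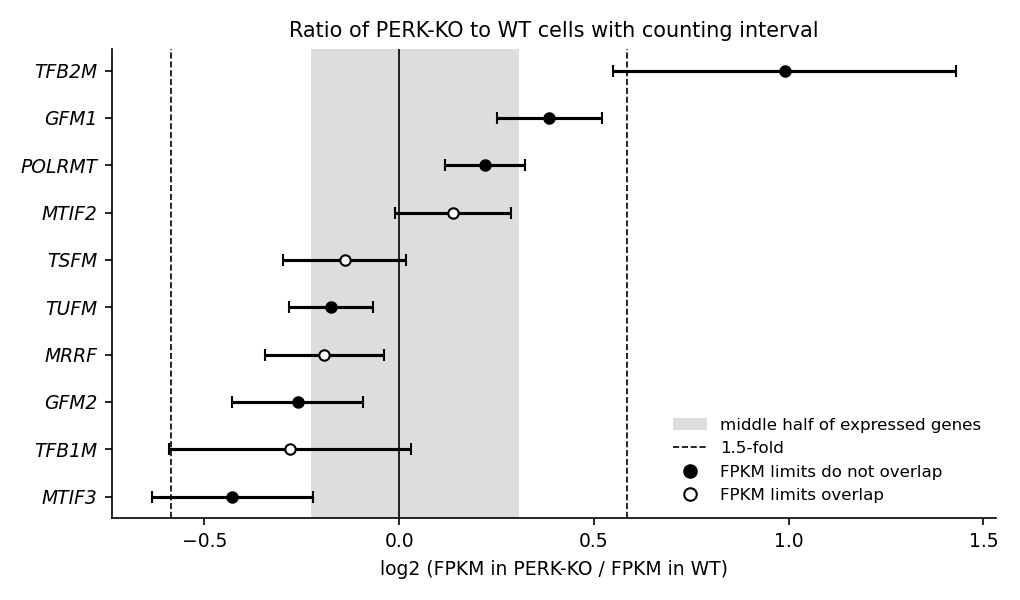
Log2 ratio of the FPKM in PERK-KO cells to that in WT cells for the 10 genes, 1 library per genotype; bars are counting intervals from the deposited limits, the grey band runs from the first to the third quartile of the expressed genes (-0.23 to 0.31), and filled points have separate FPKM limits. TFB2M at 0.99 is the only gene past the 1.5-fold lines, and MTIF3 at -0.43 is the lowest.

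Ratios between 2 genes of the same library do not depend on how the libraries were scaled. The 4 pairs of related factors described next were chosen after the values were seen, and they are given as descriptions. GFM1 stood at 0.825 of GFM2 in WT cells (interval 0.744 to 0.915) and at 1.29 times GFM2 in PERK-KO cells (1.16 to 1.44). The order of the elongation and the recycling factor was therefore exchanged, and in each library the limits of both genes were apart. TFB2M stood at 0.501 of TFB1M in WT cells (0.378 to 0.664) and at 1.21 times TFB1M in PERK-KO cells (0.946 to 1.54). In WT cells the limits of TFB1M and TFB2M were apart, and in PERK-KO cells they overlapped, so the 2 mRNAs could no longer be told apart by level. MTIF2 went from 0.552 of MTIF3 (0.491 to 0.620) to 0.817 of it (0.715 to 0.934) and remained the lower one. The ratio of TUFM to TSFM was 3.19 (2.93 to 3.48) in WT and 3.12 (2.82 to 3.44) in PERK-KO cells, which overlap. Across genotypes, the GFM1 to GFM2 ratio differed by a factor of 1.57 (1.35 to 1.82), the TFB2M to TFB1M ratio by 2.41 (1.66 to 3.50) and the MTIF2 to MTIF3 ratio by 1.48 (1.24 to 1.77). The TUFM to TSFM ratio differed by a factor of 0.976 (0.855 to 1.11). With the length trend subtracted, the log2 ratios of PERK-KO to WT were 0.30 for GFM1, -0.33 for GFM2, 1.11 for TFB2M and -0.31 for TFB1M, so these partners still lay on opposite sides of 0. For MTIF2 and MTIF3 they were 0.13 and -0.15, compared with 0.14 and -0.43 before, so the difference within that pair became smaller.

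**Figure D3:**
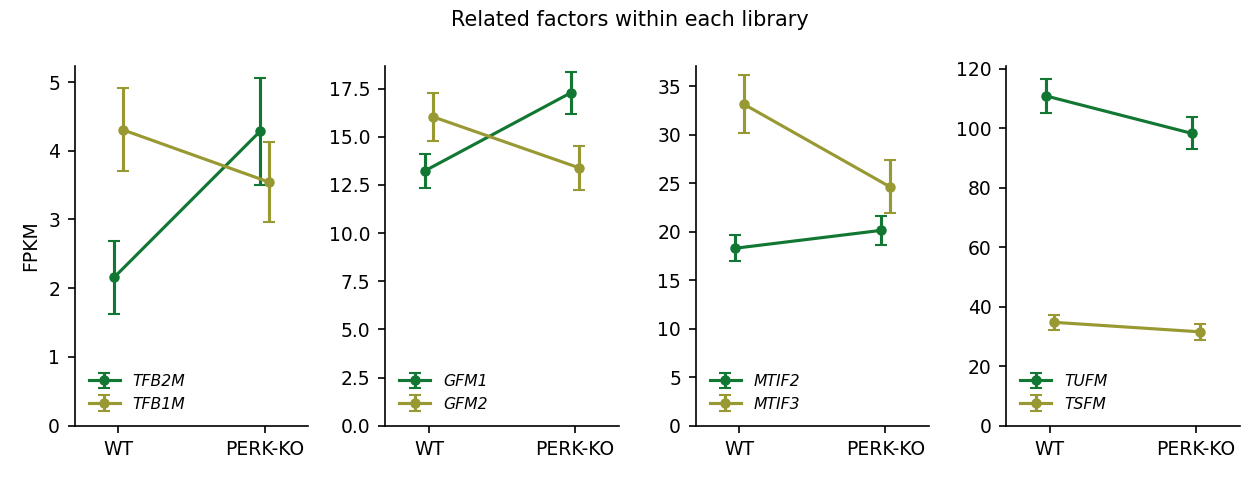
FPKM on linear axes from 0 for 4 pairs of related factors in WT and PERK-KO cells, 1 library each; bars are the deposited confidence limits. The lines of GFM1 and GFM2 cross, as do those of TFB2M and TFB1M, whose limits overlap in PERK-KO cells, whereas MTIF2 stays below MTIF3 and TUFM stays above TSFM.

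The promoters are shown because the study concerned GABPα, a transcription factor of many mitochondrial genes that binds a GGAA core. Its GABPα reporter, driven by the MTIF2 promoter, was less active in mouse brown adipocytes depleted of PERK. The study also reported the GABPα motif as enriched in mitochondria-related genes that were lower in PERK-KO HEK293 cells. RefSeq gives, for each of the 10 genes, the bases from 250 before to 50 after the transcription start on GRCh38.p14. Both strands were read for CCGGAAG, a GABP core, and for an NRF1-like motif, GCGCA and GCGC with any base between them. In the sequences below, which stop at the base before the start and read 5′ to 3′ along the gene, capitals mark these matches, and CTTCCGG is CCGGAAG on the other strand. The MTIF2 stretch, the only one with more than 1 CCGGAAG match, is chr2:55269180-55269429 on the minus strand. Its matches run from -100 to -94 and from -49 to -43 relative to the start. The TFB2M stretch, shown as that of the gene with the highest ratio, is chr1:246566262-246566511 on the minus strand and holds neither motif, which says only that these exact letters are not in the window.
MTIF2: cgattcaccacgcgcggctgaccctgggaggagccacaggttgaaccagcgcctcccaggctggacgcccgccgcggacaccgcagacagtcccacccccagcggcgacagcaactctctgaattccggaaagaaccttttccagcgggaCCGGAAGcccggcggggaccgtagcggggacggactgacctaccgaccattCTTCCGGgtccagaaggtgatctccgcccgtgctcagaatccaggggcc
TFB2M: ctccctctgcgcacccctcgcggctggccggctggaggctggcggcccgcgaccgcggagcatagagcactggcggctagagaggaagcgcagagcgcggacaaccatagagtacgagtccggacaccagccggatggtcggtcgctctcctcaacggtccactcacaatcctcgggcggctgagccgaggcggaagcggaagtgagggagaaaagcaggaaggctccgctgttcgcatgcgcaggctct

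The other genes with a match are shown around it. In TUFM (chr16:28846349-28846408, minus strand) and GFM1 (chr3:158644467-158644526, plus strand) the core lies at the same distance, from -8 to -2. In GFM2 (chr5:74767118-74767177, minus strand) it lies from -13 to -7. In TFB1M (chr6:155314535-155314624, minus strand) the core lies from -85 to -79 and the NRF1-like motif from -132 to -123. In POLRMT (chr19:633538-633657, minus strand) the core lies from -93 to -87, and 2 overlapping NRF1-like matches span -24 to -9.
TUFM: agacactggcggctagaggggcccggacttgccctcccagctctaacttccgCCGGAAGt
GFM1: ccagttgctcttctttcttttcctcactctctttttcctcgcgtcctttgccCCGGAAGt
GFM2: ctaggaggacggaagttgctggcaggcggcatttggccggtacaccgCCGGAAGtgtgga
TFB1M: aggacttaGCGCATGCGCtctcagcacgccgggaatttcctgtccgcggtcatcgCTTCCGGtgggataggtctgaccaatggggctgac
POLRMT: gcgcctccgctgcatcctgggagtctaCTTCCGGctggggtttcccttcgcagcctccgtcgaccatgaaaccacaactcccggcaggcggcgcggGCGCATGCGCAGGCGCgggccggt

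CCGGAAG was present in 6 of the 10 promoters, compared with 10.3% of all 35116 RefSeq promoters of the same length and 16.3% of the 14581 that share a gene name with an expressed gene. The NRF1-like motif was present in 2 of the 10, compared with 5.78% and 9.53%. A match is a description of letters and not a bound site. The 6 genes with the GABP core did not share a direction. GFM1 and POLRMT were higher in PERK-KO cells with separate limits, TUFM and GFM2 were lower with separate limits, and the limits of MTIF2 and TFB1M overlapped. Their log2 ratios ran from -0.28 to 0.39. The 4 genes without an exact CCGGAAG match ran from -0.43 in MTIF3 to 0.99 in TFB2M. The lowest and the highest ratio of the 10 were thus both among them. The TFB2M letters shown above do hold GGAA in other surroundings, and other forms of the site were not searched. Only 1 start per gene was searched, although 3 groups of starts are given for MTIF3 and 2 each for MTIF2 and MRRF.

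**Figure D4:**
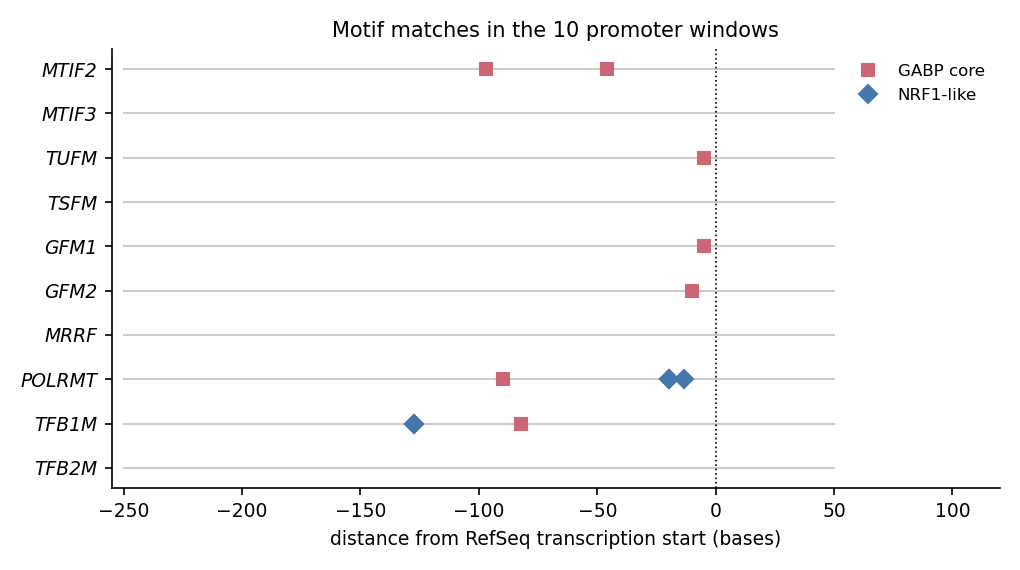
Position of motif matches, in bases from the RefSeq transcription start (dotted line), in the promoter windows of the 10 genes from -250 to 50; squares are the GABP core and diamonds the NRF1-like motif, on either strand. Core matches are found in 6 genes, and POLRMT and TFB1M hold both motifs.

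Several of the genes start close to a neighbour on the opposite strand. CNST starts 195 bases from TFB2M and is transcribed away from it. Its FPKM was 0.965 (0.759 to 1.17) in WT and 1.65 (1.37 to 1.94) in PERK-KO cells, for a log2 ratio of 0.78 with separate limits. Both genes of this head-to-head pair were thus higher in PERK-KO cells, although CNST reached an FPKM of 1 only there. NSA2, a ribosome biogenesis gene, starts 132 bases from GFM2 and had 86.1 (81.3 to 90.9) and 77.7 (72.9 to 82.5), with overlapping limits. RBM18, whose start overlaps that of MRRF, had 10.5 and 13.2, so it was higher with separate limits, and its ratio lies on the other side of 1 from that of MRRF. Of the exonic bases of TFB1M, 44.3% are shared with TIAM2 on the opposite strand, whose own FPKM was 0.783 and 0.871, with overlapping limits. Smaller parts are shared by TSFM with AVIL (10.4%) and by MRRF with RBM18 (6.84%).

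A list of 68 other genes of mitochondrial DNA maintenance, RNA processing, ribosome assembly and translation was measured beside the 10, and all 68 were expressed. Separate limits were found in 13 that were lower in PERK-KO cells and in 13 that were higher, or 19.1% each, where all expressed genes gave 18.7% and 26.1%. By more than 1.5-fold, 3 were lower and 1 was higher, or 4.41% and 1.47%, where all expressed genes gave 7.54% and 10.1%. The median log2 ratio was -0.02. These shares lie near or below those of all genes, and nothing particular to the list is read from them.

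Among the 6 regulators of mitochondrial transcription, TFAM had 26.5 in WT and 27.3 in PERK-KO cells, a log2 ratio of 0.04 (interval -0.07 to 0.15). TEFM, the elongation factor of POLRMT, had 11.2 (9.78 to 12.6) and 9.95 (8.53 to 11.4). The limits of both overlapped. MTERF, a termination factor that binds mitochondrial DNA, went from 5.94 (5.15 to 6.72) to 3.84, with separate limits and a log2 ratio of -0.63. Its relative MTERFD3, now named MTERF2, went from 10.5 (9.25 to 11.7) to 6.66 (5.64 to 7.68), a log2 ratio of -0.65. These were 2 of the 3 genes of the 68 that were lower by more than 1.5-fold. Neither passed that fold with the length trend subtracted, or with 1 added to each FPKM. MTERFD1 and MTERFD2, the other members of that family, had log2 ratios of 0.10 and -0.24 with overlapping limits.

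Among the 8 genes of mitochondrial DNA replication, POLG, the DNA polymerase, had limits of 23.6 to 26.4 in WT and an FPKM of 34.5 (32.7 to 36.3) in PERK-KO cells, for a log2 ratio of 0.47. The helicase gene C10orf2 had 15.4 and 15.2 with overlapping limits. CCDC111, a primase gene, and MGME1, a nuclease gene, shared the lowest log2 ratio, -0.38, with overlapping limits in CCDC111 and separate limits in MGME1. POLG and TOP1MT were the 2 genes of this list that were higher with separate limits.

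Of the 26 genes of RNA processing and tRNA modification, 6 were lower and 5 were higher with separate limits, or 23.1% and 19.2% beside the 18.7% and 26.1% of all expressed genes. FASTKD3, of a family of mitochondrial RNA-binding proteins, was the lowest, with 14.9 (12.9 to 16.9) in WT and 8.95 (7.51 to 10.4) in PERK-KO cells, for a log2 ratio of -0.74. PNPT1, the RNA-degrading polynucleotide phosphorylase, had the highest log2 ratio, 0.31. LRPPRC, which stabilises mitochondrial messages, had 39.6 (38.5 to 40.7) and 48.8 (47.5 to 50.1), a log2 ratio of 0.30, whereas its binding partner SLIRP had 239 (221 to 258) and 181 (165 to 197), a log2 ratio of -0.40. The transcripts of LRPPRC and SLIRP measure 6603 and 376 bases, and over all expressed genes the median log2 ratio was 0.24 for transcripts of at least 4000 bases and -0.35 for those under 1000.

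In ribosome assembly, 3 of 14 genes were lower and 2 were higher with separate limits (21.4% and 14.3%, beside 18.7% and 26.1% of all expressed genes), from MALSU1, which binds the large subunit, at a log2 ratio of -0.52 to the GTPase NOA1 at 0.25. Among the 14 other translation factors, 1 was lower and 4 were higher with separate limits, or 7.14% and 28.6%. METAP1D, a mitochondrial methionine aminopeptidase, was the highest, with 1.15 (0.739 to 1.57) in WT and 3.14 (2.41 to 3.88) in PERK-KO cells, for a log2 ratio of 1.45. Its limits in WT cells correspond to about 31 fragments. ICT1, which rescues stalled ribosomes, had 54.2 (50.2 to 58.2) and 41.6 (37.8 to 45.4), a log2 ratio of -0.38 that was the lowest of this list. MTRF1L, a release factor, and MTFMT, which formylates the initiator tRNA, had log2 ratios of -0.14 and -0.18 with overlapping limits.

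**Figure D5:**
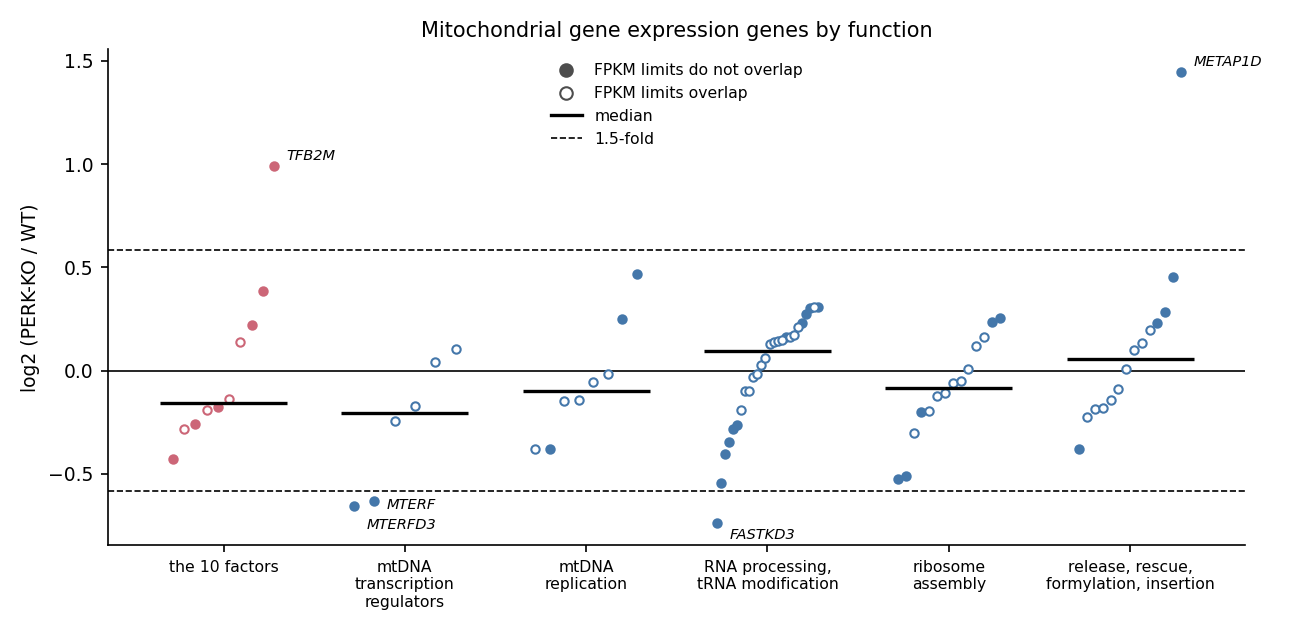
Log2 ratio of PERK-KO to WT for the 10 factors (red) and the 68 other genes by function (blue), 1 library per genotype; horizontal bars are medians, dashed lines mark 1.5-fold, and filled points have FPKM limits that do not overlap. Only TFB2M and METAP1D lie above the upper line, and MTERF, MTERFD3 and FASTKD3 lie below the lower one.

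Set beside their cytosolic counterparts, EEF1A1 had 4227 in WT and 3558 in PERK-KO cells, a log2 ratio of -0.25 where TUFM had -0.17. EEF2 had 1409 and 1809, a log2 ratio of 0.36 where GFM1 had 0.39. EIF5B, the cytosolic relative of MTIF2, went from 90.6 (88.5 to 92.6) to 56.8 (55.1 to 58.5), a log2 ratio of -0.67 where MTIF2 had 0.14. The cytosolic recycling factor ABCE1 had a log2 ratio of 0.64, while MRRF and GFM2 were below 0. MTIF3, which has no counterpart in this list, had -0.43. Of the other counterparts, EEF1A2 had a log2 ratio of -0.46 with separate limits, and ETF1 and DIMT1 had 0.01 and 0.19 with overlapping limits. No pattern across the pairs was tested. None of the 15 mRNAs and ribosomal RNAs encoded by mitochondrial DNA was found under its name, and its tRNAs were not looked up. The product of the transcription factors was therefore not analysed here.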

How the data were processed

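Poly(A) RNA of 1 WT and 1 PERK-KO HEK293 culture was sequenced. The authors mapped the reads to hg19 (GRCh37) with TopHat2 2.0.13 and computed FPKM with Cufflinks 2.2.1 and Cuffdiff, according to the study's methods and the submitters' processing notes. They deposited per gene the FPKM with a lower and an upper confidence limit. The depth is not given, and the gene annotation is not given in the sources used here. No count model was used, because FPKM values are not counts.

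The log2 ratio of PERK-KO to WT was taken without a pseudocount, over genes that reached an FPKM of 1 in either sample. Its interval combines the relative widths of both limits, taken as 2 SD on either side, as Cufflinks writes them. Where the text gives fragments, they are the number whose counting error equals that width, and 133 of 4316 genes with a single start and 20 to 300 fragments were within 0.02 of a whole number in both samples. Gene loci are those of the files. Transcript lengths and neighbours came from GENCODE 44 on GRCh37, with lengths for 94.9% of expressed genes. A running median over 501 genes gave the length trend. The named genes are the 10 factors, fixed genes of the other lists, the highest and lowest ratio of each list and those past 1.5-fold with separate limits. CNST, NSA2, RBM18, GTF3A, TIAM2, AVIL, MGME1, SLIRP, TOP1MT, MTERFD1, MTERFD2 and the cytosolic genes are named outside that rule, after their values were seen. The members and lists were chosen with earlier results of these data known. Python 3.11.15, numpy 2.4.6, pandas 2.3.3 and matplotlib 3.10.9 were used. The calculations were run on simulated libraries that held only the counting noise which the intervals assume. That checks the arithmetic and not the length trend, the assignment error or the spread between cultures.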

Additional observations from a re-analysis of the deposited data

How the results depend on the processing

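No paired analysis was possible because each genotype has 1 sample, and for the same reason no replicate could be left out. Of 120 recomputed values, 112 stayed within their counting error or within 1.5 times the count. Some of them could hardly move. Each of the 10 genes has 1 row, so summing rows of the same name left their ratios as they were. The 2 rescalings shifted every log2 ratio by only 0.04 or 0.03. No ratio of the 10 genes changed sign. The number of the 10 genes past the fold threshold was 1 lower and 2 higher at 1.3-fold, where MTIF3 and GFM1 were added, and 0 higher at 2-fold, since TFB2M lies just under it. With an FPKM of at least 5 in one sample, 0 of the 10 and 0 of the 68 other genes were higher by over 1.5-fold, because TFB2M and METAP1D are below that level. A pseudocount of 1 left 1 of the 68 lower, FASTKD3, and TFB2M at a log2 ratio of 0.74. Rescaling by the median ratio or by the 75th percentile gave 4 genes of the 10 lower with separate limits, MRRF being added. Subtracting the length trend moved MTIF3 from -0.43 to -0.15 and POLRMT from 0.22 to 0.11, and took MTERF and MTERFD3, but not FASTKD3, above the lower 1.5-fold line (applied to the 68 after the data were seen) while MALSU1 passed it. Over all genes, 1100 were lower and 1481 higher by over 1.5-fold, compared with 1942 and 2496 without a filter, 702 and 872 at an FPKM of 5, 767 and 944 with the pseudocount, 1279 and 1290 when rescaled to the median ratio, 1210 and 1359 when rescaled to the 75th percentile, 706 and 937 with the length trend subtracted, 2237 and 2944 at 1.3-fold, and 304 and 479 at 2-fold. Of the 10 genes, depth limits TFB2M and TFB1M most, with limits 24.4% and 14.1% away from the WT value.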

Other observations

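Although no mRNA or ribosomal RNA of mitochondrial DNA was found under its own name, 9 MTRNR2-like genes were listed. These are nuclear copies of the large mitochondrial ribosomal RNA, and they were noticed after the values had been seen. An FPKM of 1 in either sample was reached by 8 of them. With limits that did not overlap, all 8 were lower in PERK-KO cells, as were 18.7% of all expressed genes. The log2 ratios of the 8 ran from -0.61 to -0.28, with a median of -0.50. Reads from mitochondrial ribosomal RNA and from its near-identical nuclear copies cannot be told apart and the copies are not independent of each other, so the source of these reads was not tested.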
